A study of Rattus norvegicus with 9 samples.

Results

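The genes described here are ribosome biogenesis and nucleolar factors, measured by poly(A) RNA sequencing of rat gastric lymphatic vessels. They were chosen by symbol alone: all genes whose symbol starts with Utp, Nop, Nol or Rrp followed by a digit, together with Noc2l, Noc3l, Noc4l, Nhp2, Imp3, Imp4, Bop1, Gar1, Dkc1, Fbl, Ncl and Npm1, and without Nol3 and Nol4. The rule matched 44 of the 18964 genes in the table, and all 44 passed the filter on low counts. One of them, Nol4l, was matched by its symbol only and was placed in no ribosome assembly role. The rats were male wild-type Sprague-Dawley animals of 180 to 220 g, fasted for 12 h, with 6 rats in each treatment arm. Control rats had no stress and received distilled water by gavage. Model rats spent 4 h in water of 22 °C and 15 cm depth, an immersion stress used to produce gastric ulcers, and 30 min later were given vehicle by gavage, named saline in the sample label and distilled water in the protocol. BXD rats were stressed in the same way and were then given Banxia Xiexin decoction (BXD), a traditional herbal formula from China, in place of vehicle. Each gavage was 10 ml/kg. Each group has 3 libraries. The labels tie no library to a rat, and p-values therefore reflect spread among the libraries, which may be technical.

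Ribosomes are built in the nucleolus, where RNA polymerase I makes a long precursor RNA that is cut, folded, chemically modified and wrapped in ribosomal proteins. The small subunit processome, a very large particle that holds the U3 small nucleolar RNA, assembles on the first part of that precursor, and its UTP proteins enter as preformed complexes. Box C/D particles guide 2′-O-methylation and box H/ACA particles guide pseudouridylation of the same precursor, while a separate set of factors builds the large subunit. In growing cells the whole program is commonly raised and lowered as one, since ribosome production is among the most costly activities of a cell.

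Promoter stretches are shown first because many of these genes share one short motif in front of their start, whichever way the transcript moved afterwards. Of the 44 genes, 41 had an entry in the RefSeq promoter table (GRCr8 build), and the 250 bases before the start were searched on both strands. The ETS motif CCGGAAG, read as CTTCCGG on the other strand, was present in 21 of 41 (51.2%), against 14.1% of the 11445 tested genes in that table and 7.74% of all 27457 genes in it. It was present in 8 of the 20 members called higher in model than control, 4 of the 6 called lower and 9 of the 15 not called. The 100 bases before the start are printed 5′ to 3′ on the gene's strand for every called member with that motif in them, with the ETS motif and any E-box CACGTG in capitals.
Imp4 (chr9:44149929-44150028, plus strand): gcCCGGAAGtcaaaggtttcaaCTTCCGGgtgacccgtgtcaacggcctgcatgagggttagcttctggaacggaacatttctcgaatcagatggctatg
Nol10 (chr6:45872881-45872980, plus strand): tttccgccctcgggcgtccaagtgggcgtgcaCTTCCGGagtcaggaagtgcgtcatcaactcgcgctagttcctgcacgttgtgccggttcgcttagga
Nop58 (chr9:68614974-68615073, plus strand): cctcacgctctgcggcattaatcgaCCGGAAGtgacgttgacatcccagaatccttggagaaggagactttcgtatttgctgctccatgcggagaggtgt
Rrp15 (chr13:100830813-100830912, minus strand): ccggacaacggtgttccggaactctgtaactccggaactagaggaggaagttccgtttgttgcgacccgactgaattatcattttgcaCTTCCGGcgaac
Utp18 (chr10:79335758-79335857, minus strand): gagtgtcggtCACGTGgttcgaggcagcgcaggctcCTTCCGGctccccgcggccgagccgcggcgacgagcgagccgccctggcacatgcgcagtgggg
Utp4 (chr19:51702141-51702240, plus strand): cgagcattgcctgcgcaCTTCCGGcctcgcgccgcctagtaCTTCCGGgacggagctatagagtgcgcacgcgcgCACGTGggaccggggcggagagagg
Rrp36 (chr9:21806457-21806556, plus strand): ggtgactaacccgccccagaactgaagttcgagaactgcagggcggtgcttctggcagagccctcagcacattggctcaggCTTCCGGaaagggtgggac
Rrp7a (chr7:116152865-116152964, minus strand): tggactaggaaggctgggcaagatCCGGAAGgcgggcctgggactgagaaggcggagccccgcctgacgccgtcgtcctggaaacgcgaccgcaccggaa
Rrp8 (chr1:169500474-169500573, minus strand): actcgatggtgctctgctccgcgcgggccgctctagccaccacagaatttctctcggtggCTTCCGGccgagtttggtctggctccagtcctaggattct
Imp4, Nol10, Nop58, Rrp15, Utp18 and Utp4 were called higher in model than control, and Rrp36, Rrp7a and Rrp8 were called lower. Imp4 and Utp4 each carried the motif at a pair of places in this stretch. The E-box CACGTG, the letters bound by MYC and related factors, was present in 7 of 41 (17.1%) of the 250-base windows against 7.88% of tested genes. The median GC content of the windows was 59.2% for the members and 59.6% for tested genes. These matches describe letters only, and binding was not measured.

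Values below are read counts relative to library size (CPM), scaled between libraries by trimmed means (TMM), and tests are edgeR's quasi-likelihood test on the estimated counts with Benjamini-Hochberg adjustment over all 14643 genes tested. A gene is called when its adjusted p is under 0.05. Total counts per library ran from 12313823 to 13455701, and the lowest count of any member in any library was 16. The 6 markers of lymphatic endothelium were all present, with a summed level of 440 to 473 CPM in control, 425 to 696 in model and 593 to 753 in BXD libraries. Of these, 1 was called higher and 1 lower in model than control. Gastric mucosa markers summed to at most 2.203 CPM. Other cell types moved with the groups. The 8 adipocyte markers summed to 3498 to 4520 CPM in control, 10004 to 18981 in model and 6019 to 9169 in BXD, with 7 called higher in model than control. The 7 smooth muscle markers summed to 3727 to 5792, 1672 to 3062 and 5207 to 8083 CPM, with 4 called lower in model. Blood endothelium markers summed to 1187 to 1740 CPM in control, 911 to 1452 in model and 1246 to 2035 in BXD. Fibroblast markers were far higher, at 33018 to 46624, 21153 to 30238 and 28372 to 37250 CPM. In each of these 2 lists of 6 markers, 2 were called lower in model than control and 0 higher. All 8 markers of cycling cells were called lower in model than control and in BXD than control, at 197 to 210, 82.2 to 103 and 60.8 to 89.7 CPM. The part of these shifts in the results below was not tested, and in a bulk sample fewer cells of a type and less RNA per cell cannot be told apart.

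Per unit of transcript length, the members covered a wide range of levels. On the deposited FPKM scale, Npm1 stood highest at a mean of 388 over the 9 libraries, followed by Ncl at 199 and Nop10 at 92.9. The lowest were Rrp8 at 2.53, Utp20 at 2.95 and Nol8 at 3.12 FPKM. The median over the 44 genes was 14.5 FPKM, and 32 of them exceeded 10 FPKM. The most abundant members were thus the nucleolar chaperones and a small core protein of the H/ACA particle, and the scarcest included the methyltransferase Rrp8 and the very large repeat protein Utp20.

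**Figure D1:**
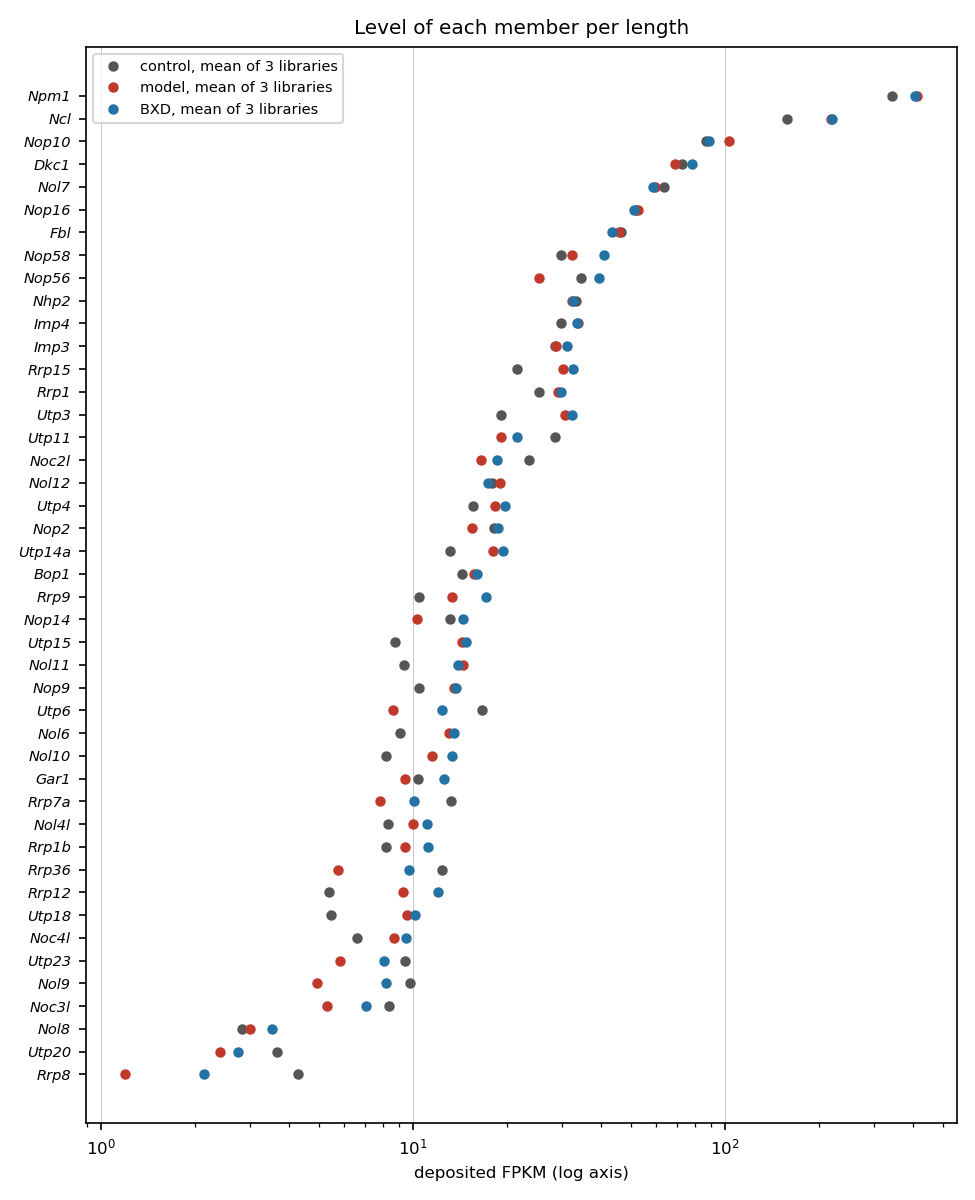
Deposited FPKM (log axis) of each of the 44 genes, ordered by mean level, with a point for the mean of the 3 libraries in control, model and BXD. Npm1 and Ncl stand at the top and Rrp8 at the bottom, where its control mean lies to the right of its model and BXD means.

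The first comparison asked which of these genes differed between stressed and unstressed vessels. In model against control, 20 of 44 members (45.5%) were called higher and 6 (13.6%) lower, whereas 42.2% of all genes tested were called, 21.6% higher and 20.6% lower. Their median log2 fold change was 0.37, beside -0.014 over all genes tested. All 3 model libraries lay above all 3 control libraries in 25 members and below them in 12. Over all genes such separation was found in 58.3%, upward in 28.9% and downward in 29.4%. The members called higher ranged from Nop58 with a log2 fold change of 0.38 to Utp18 and Rrp12 with 1.07, and those called lower from Noc2l with -0.37 to Rrp8 with -1.57. Where libraries were scaled by total count alone, the counts became 12 higher and 12 lower, while the share of all genes called was then 11.1% higher and 33.5% lower. That scaling moved the median of all genes to -0.28, and the members' median stood 0.40 above it, beside 0.38 above it with trimmed means.

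**Figure D2:**
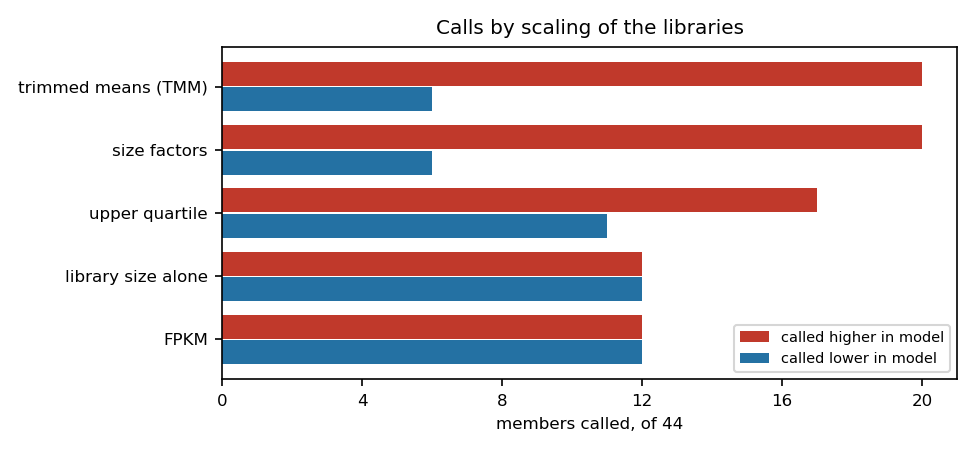
Number of the 44 members called higher and lower in model against control under 5 ways to scale the libraries. Trimmed means and size factors give 20 higher and 6 lower, upper quartile scaling 17 and 11, and library size alone and FPKM (pseudocount 1) 12 and 12.

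The small subunit processome held the strongest increases. Of its 22 members 13 rose and 3 fell in model against control, beside 21.6% and 20.6% of all genes. Their median log2 fold change was 0.55. Utp15, a subunit of the UTP-A complex that binds the precursor RNA early, lies on chromosome 2 from 28351925 to 28370315 (Rnor_6.0). It was at 30.9, 28.2 and 28.9 CPM in the control libraries, 55.7, 61.9 and 59.5 in model and 52.5, 64.8 and 56.3 in BXD. Every stressed library, treated or not, was above every control library. The log2 fold change of Utp15 in model against control was 1.01 (SE 0.11, 2.01-fold, adjusted p = 0.000423).

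**Figure D3:**
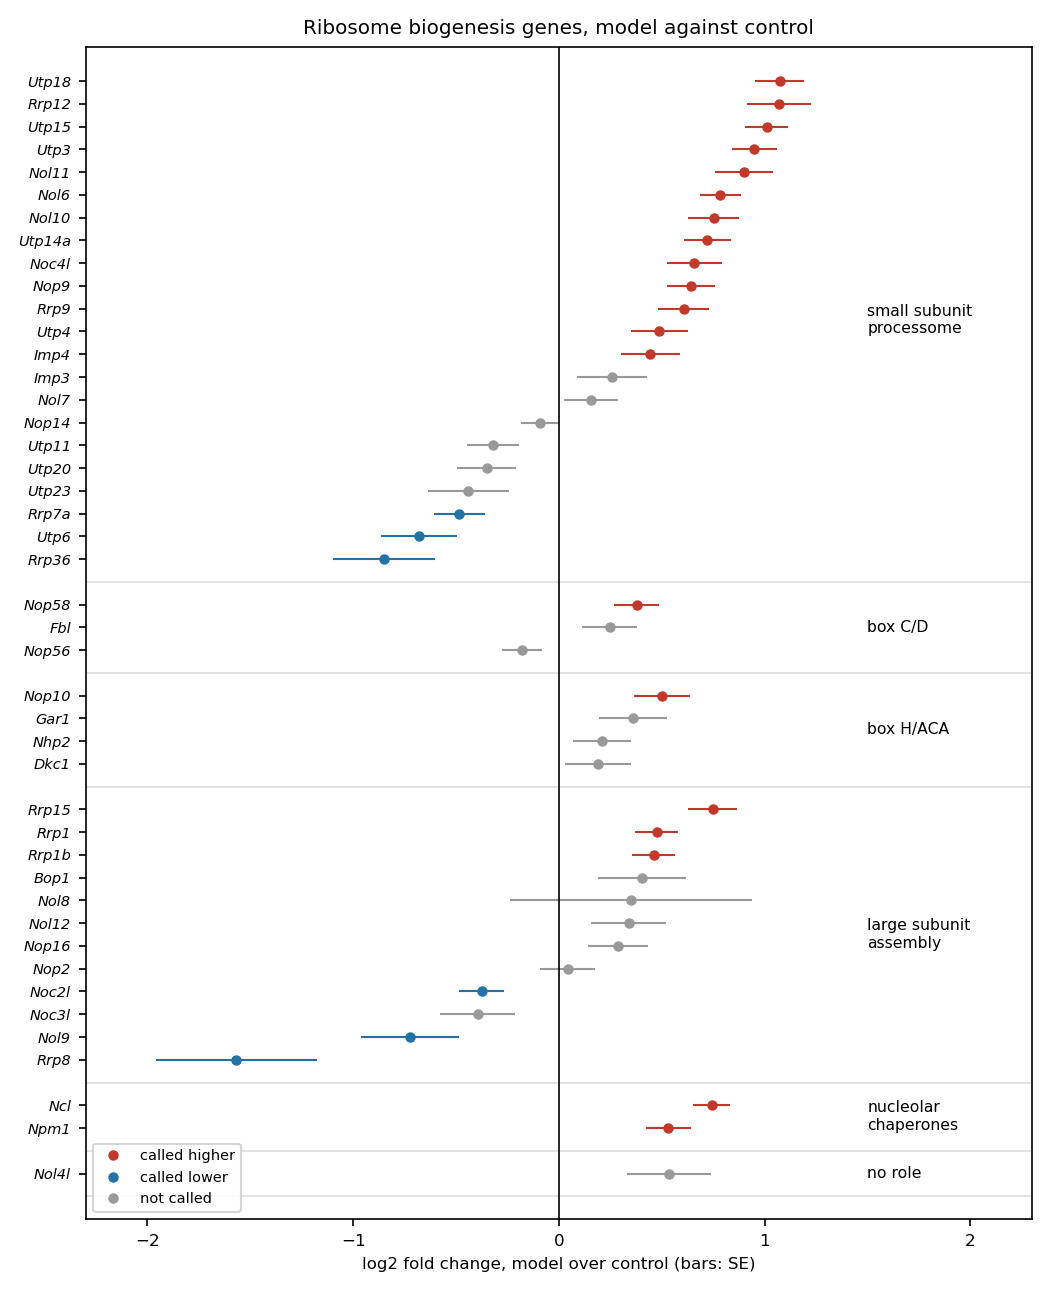
Log2 fold change of each member in model against control, grouped by role, with the standard error of the fit as a bar and the genes called in colour. The 13 processome members called higher lie to the right of the zero line and reach 1.07, and the 6 members called lower lie to the left, with Rrp8 farthest at -1.57.

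Utp18, a subunit of the UTP-B complex (chromosome 10, 81560929 to 81588156), was at 11.6, 10.1 and 11.3 CPM in control, 22.4, 22.8 and 24.2 in model and 21.5, 24.8 and 24.3 in BXD. Its level was 2.10-fold higher in model than control (log2 fold change 1.07, SE 0.12, adjusted p = 0.000498), and the model and BXD libraries overlapped. Utp3, the mammalian counterpart of yeast Sas10 (chromosome 14, 21153998 to 21155652), was at 23.9, 23.1 and 23.5 CPM in control, 40.2, 47.8 and 48.2 in model and 42.8, 50.1 and 44.3 in BXD. It rose 1.93-fold (log2 fold change 0.95, SE 0.11, adjusted p = 0.000574). Both genes thus separated control from the other 6 libraries without overlap.

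Nol6, the counterpart of yeast Utp22 and a subunit of the UTP-C complex (chromosome 5, 57444448 to 57473803), was at 49.6, 49.5 and 52.6 CPM in control, 83.7, 89.4 and 88.5 in model and 95.6, 87.3 and 77.9 in BXD. It rose 1.72-fold (log2 fold change 0.79, SE 0.10, adjusted p = 0.000763). Rrp12, a repeat protein needed for export of pre-ribosomes, was at 21.7, 17.5 and 19.9 CPM in control, 40.6, 49.6 and 33.9 in model and 56.7, 48.6 and 47.9 in BXD. Its log2 fold change in model was 1.07 (SE 0.16, adjusted p = 0.00131), with the widest spread in the model group.

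A further 8 processome genes rose. The log2 fold change was 0.90 for Nol11 and 0.49 for Utp4, which sit with Utp15 in UTP-A, and 0.72 for Utp14a, an activator of the RNA helicase Dhx37. It was 0.75 for Nol10, 0.66 for Noc4l, 0.64 for Nop9, 0.61 for the U3 protein Rrp9 and 0.45 for Imp4. Their adjusted p ran from 0.00169 for Nol11 to 0.0322 for Imp4. Imp3, which binds U3 together with Imp4, was at 0.26 (adjusted p = 0.246) and Nol7 at 0.16 (adjusted p = 0.353), and neither passed the test. Both had a negative fold change with library size alone, and Nol7 also on the FPKM scale. The call of Utp4 was lost without control replicate 1, 2 or 3 or model replicate 3, and that of Imp4 without control replicate 1, 2 or 3 or model replicate 2, and both were lost with library size alone. Nol6, Noc4l, Nop9, Imp4 and Utp4 each overlap another gene, so their reads are less certain, although their counts were whole.

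The 3 processome genes that fell belong to complexes with a partner that rose. Utp6, which belongs to UTP-B with Utp18, was at 50.8, 55.6 and 55.5 CPM in control, 35.1, 31.4 and 34.5 in model and 32.2, 48.6 and 57.8 in BXD. It was 1.60-fold lower in model than control (log2 fold change -0.68, SE 0.18, adjusted p = 0.0171), and its BXD libraries spanned the levels of both other groups. Rrp36, a UTP-C subunit beside Nol6, was at 19.8, 16.8 and 21.2 CPM in control, 12.4, 10.9 and 8.81 in model and 12.0, 16.1 and 24.1 in BXD.

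Rrp36 was 1.80-fold lower in model (log2 fold change -0.85, SE 0.25, adjusted p = 0.0239), a call lost without control replicate 1 or 3 or model replicate 2 or 3. The call of Utp6 was lost without model replicate 2 (adjusted p = 0.0551). Rrp7a, which also belongs to UTP-C, was at 51.9, 50.5 and 49.2 CPM in control, 36.0, 38.7 and 33.6 in model and 36.8, 46.4 and 49.9 in BXD, and was 1.40-fold lower in model (log2 fold change -0.48, SE 0.12, adjusted p = 0.0133). So in UTP-B and in UTP-C the members of the set moved in opposite directions, each past the test. The deposited counts of Rrp7a were not whole in any library, and it overlaps Serhl2 on the other strand, so its reads are less certain. Utp11 at -0.32 (adjusted p = 0.070), Utp20 at -0.35 (adjusted p = 0.0744) and Utp23 at -0.44 (adjusted p = 0.101) had all 3 model libraries below control and did not pass the test, and all 3 passed it as lower with library size alone.

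**Figure D4:**
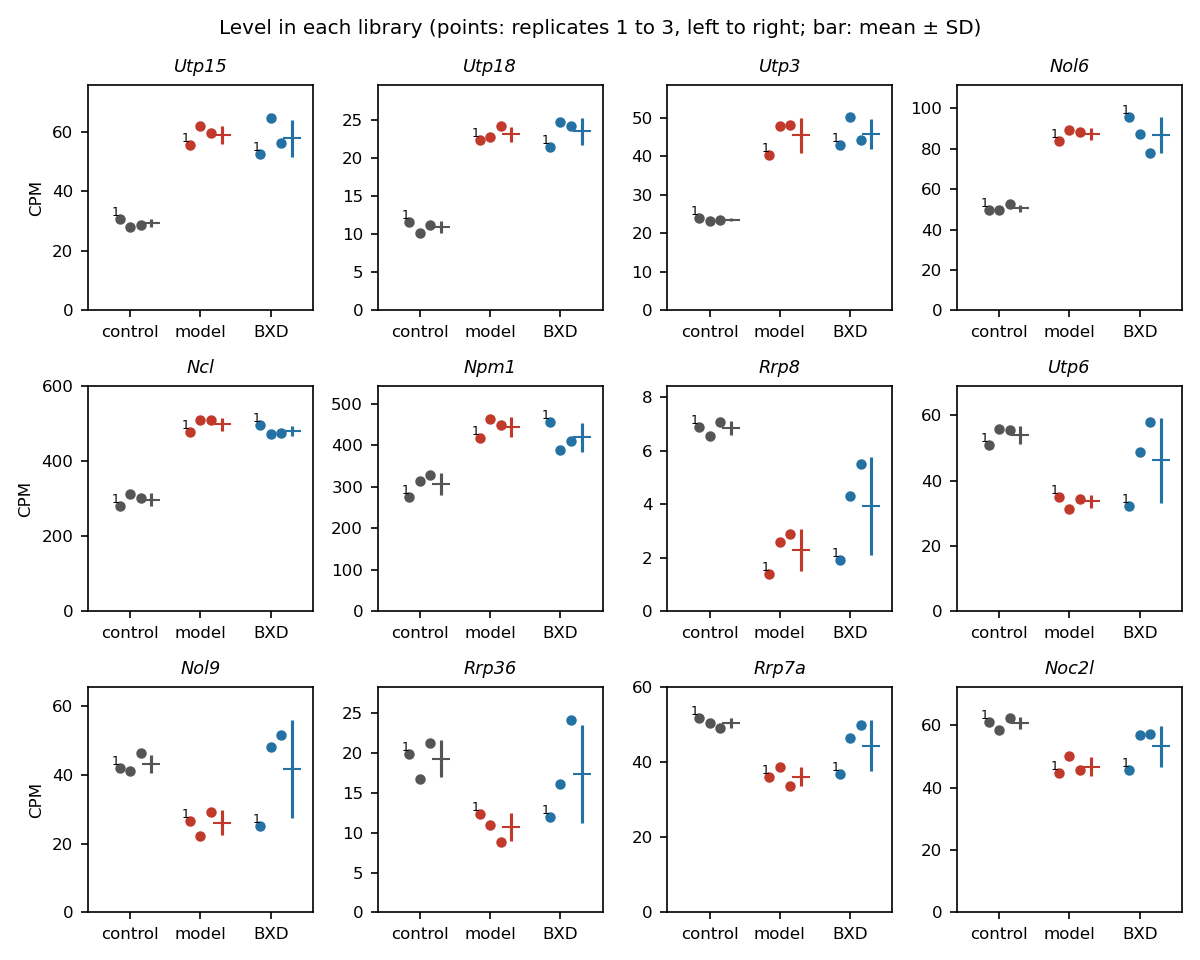
CPM (linear axis from 0) in each of the 9 libraries for 12 members named in the text, with a point for each library and the group mean with its SD (n = 3) beside the points. The levels of Utp15, Utp18, Utp3 and Nol6 in model and BXD lie above control, and those of Utp6 and Rrp36 in model lie below it with BXD spread over both levels.

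Of the 3 members placed in the box C/D particle, 1 rose in model against control, where 21.6% of all genes were called higher. Nop58 was at 47.9, 40.1 and 49.3 CPM in control, 60.1, 59.9 and 58.6 in model and 65.3, 76.5 and 75.1 in BXD, so the groups formed 3 steps without overlap. Its log2 fold change in model was 0.38 (SE 0.11, adjusted p = 0.0219), and this call was lost with library size alone, with upper quartile scaling, on the FPKM scale and without control replicate 2 or model replicate 1. Fbl, the methyltransferase of the particle, was at 0.25 (adjusted p = 0.169), and was negative with library size alone and on the FPKM scale.

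Nop56, the close relative of Nop58 in that particle (chromosome 3, 122803726 to 122808564), went another way. It was at 52.2, 48.7 and 49.8 CPM in control, 47.0, 40.8 and 45.3 in model and 63.7, 72.5 and 62.9 in BXD. The model libraries were the lowest and the BXD libraries the highest, with no overlap between any pair of groups. The log2 fold change in model against control was -0.18 (adjusted p = 0.172), and with library size alone it was -0.45 and passed the test (adjusted p = 0.0139). Nop56 overlaps Idh3B in the annotation and some of its counts were not whole, so its reads are less certain.

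Of the 4 core proteins of the box H/ACA particle, 1 rose, a share near that of all genes (21.6%). Nop10, a small structural subunit, was at 42.7, 44.8 and 46.9 CPM in control, 54.9, 78.0 and 57.4 in model and 49.9, 53.0 and 54.3 in BXD. The log2 fold change of Nop10 was 0.50, with an SE of 0.14 and an adjusted p of 0.017, with model replicate 2 well above the other model libraries, and the call was lost with library size alone, on the FPKM scale and without control replicate 1 or 2. The pseudouridine synthase Dkc1 was at 0.19 (adjusted p = 0.361), Nhp2 at 0.21 (adjusted p = 0.255) and Gar1 at 0.36 (adjusted p = 0.104), none past the test. Dkc1 and Nhp2 were negative with library size alone, and all 3 on the FPKM scale.

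Among the 12 factors of large subunit assembly 3 rose and 3 fell, shares near those of all genes (21.6% and 20.6%), with a median log2 fold change of 0.31. Rrp15 was at 18.0, 15.8 and 17.2 CPM in control, 26.5, 32.0 and 27.3 in model and 27.6, 30.2 and 31.2 in BXD, a log2 fold change of 0.75 in model (SE 0.12, adjusted p = 0.00193). Rrp1 at 0.48 (adjusted p = 0.00702) and its paralog Rrp1b at 0.46 (adjusted p = 0.00799) followed, and the calls of both were lost with library size alone and on the FPKM scale. These 3 genes encode proteins of early precursors of the large subunit.

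The members that fell here included enzymes that act on RNA. Rrp8, which methylates a base of the large subunit RNA (chromosome 1, 170574350 to 170578693), was at 6.89, 6.56 and 7.08 CPM in control, 1.40, 2.60 and 2.89 in model and 1.92, 4.32 and 5.51 in BXD. It was 2.96-fold lower in model than control (log2 fold change -1.57, SE 0.39, adjusted p = 0.0123), the largest change in size among the 44 genes in this fit. Nol9, a polynucleotide kinase that acts in the removal of the spacer between the large subunit RNAs, was at 42.1, 41.1 and 46.3 CPM in control, 26.7, 22.3 and 29.3 in model and 25.2, 48.2 and 51.5 in BXD.

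Nol9 was 1.65-fold lower in model (log2 fold change -0.72, SE 0.24, adjusted p = 0.0365), while BXD replicates 2 and 3 were above every control library. This call was lost whichever of the 6 control and model libraries was left out, with adjusted p between 0.0528 and 0.112. Noc2l, which travels with Noc3l on large subunit precursors and is also known as a regulator of histone acetylation, was at 61.1, 58.5 and 62.4 CPM in control, 44.6, 50.2 and 45.6 in model and 45.8, 57.0 and 57.1 in BXD. It was 1.30-fold lower in model (log2 fold change -0.37, SE 0.11, adjusted p = 0.0238), a call lost without control replicate 1 or 3 or model replicate 1 or 3. The counts of Noc2l were not whole in any library, and it overlaps Samd11 on the other strand, so its reads are less certain. Its partner Noc3l was at -0.40 (adjusted p = 0.112). Leaving out 1 library also changed this side of the count: 3 members rather than 6 were called lower without control replicate 1, control replicate 3, model replicate 2 or model replicate 3. Of all genes, 15.9%, 15.2%, 14.7% and 16.5% were called lower in these fits, in that order, rather than 20.6%.

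The remaining large subunit members did not pass the test. Bop1, a subunit of the PeBoW complex, was at 0.41 (adjusted p = 0.155), Nol12 at 0.34, Nop16 at 0.29 and the RNA methyltransferase Nop2 at 0.042 (adjusted p = 0.816). Nop2 was negative with library size alone, with upper quartile scaling and on the FPKM scale. Nol4l, which has no assigned role, was at 44.9, 38.6 and 35.3 CPM in control, 59.9, 61.7 and 50.7 in model and 83.4, 54.2 and 46.8 in BXD, with a log2 fold change of 0.54 in model (adjusted p = 0.062).

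Both nucleolar chaperones rose, where 21.6% of all genes were called higher. Ncl (nucleolin, chromosome 9, 93365203 to 93377643), an abundant RNA-binding protein of the nucleolus, was at 280, 312 and 302 CPM in control, 479, 509 and 509 in model and 496, 473 and 475 in BXD. It was 1.67-fold higher in model than control (log2 fold change 0.74, SE 0.09, adjusted p = 0.000691). Npm1 (nucleophosmin, chromosome 10, 18080949 to 18091062), which binds histones and ribosomal proteins, was at 276, 315 and 328 CPM in control, 416, 464 and 450 in model and 457, 389 and 411 in BXD.

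Npm1 was 1.45-fold higher (log2 fold change 0.53, SE 0.11, adjusted p = 0.00548). For Ncl and Npm1 alike, all 6 libraries of stressed rats lay above all 3 control libraries. The call for Npm1 was lost with library size alone and on the FPKM scale, and that for Ncl was kept. Npm1 overlaps Fgf18 in the annotation and its count was not whole in 1 library, so its reads are less certain.

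The second comparison asked what the decoction changed in stressed vessels. In BXD against model no member was called, and of all genes tested 0.0615% were called, 0.0546% higher and 0.00683% lower. At an unadjusted p under 0.05, 8 members were higher and 0 lower (18.2% of members, beside 20.9% of all genes in either direction). Of the 14643 genes tested, 1613 were higher and 1442 lower at that threshold. All BXD libraries lay above all model libraries in 7 members and below in 1, where 10.5% and 11.8% of all genes did so (22.4% together). The members' median log2 fold change was 0.086, beside -0.0059 over all genes.

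Nop56 had the smallest p among the members in BXD against model, with a log2 fold change of 0.58 (SE 0.10, unadjusted p = 0.000222, edgeR adjusted p = 0.0763). Nop14, which forms a complex with Noc4l in the processome, was at 27.3, 28.7 and 29.3 CPM in control, 26.1, 27.1 and 26.9 in model and 34.8, 35.1 and 37.8 in BXD. Its log2 fold change in BXD against model was 0.43 (SE 0.09, edgeR adjusted p = 0.0959). In both genes every BXD library stood above the 6 other libraries. DESeq2 called these 2 members, Nop56 with an adjusted p of 6.164e-05 and Nop14 with 0.00501, and it called 3.38% of all genes higher and 2.46% lower. In the authors' deposited table Nop56 was the 1 member with a q under 0.05 (log2 fold change 0.58, q = 0.00815), where 2.87% of genes with a q passed.

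The members that were low in model differed between BXD libraries. In 11 of the 12 members with model below control, BXD replicate 1 was the lowest BXD library, whereas this held in 37.9% of all 4307 genes with that pattern. Taking the model mean as 0% and the control mean as 100%, the median position of these 12 members was -1.46% in BXD replicate 1, 75.5% in replicate 2 and 132% in replicate 3. By this median, BXD replicate 1 sat at the model level and replicates 2 and 3 near or past the control level. Not all members did so. Nop56 and Nop14 were at 329% and 462% in replicate 1. Rrp8 and Utp11 were at 44.4% and 48.5% in replicate 2, and Utp20 at 27.5% in replicate 3. The 12 members were chosen by their low model libraries, which can itself shift this position toward control. The position was not computed for all genes with that pattern. With all libraries, the log2 fold change in BXD against model was 0.67 for Nol9 (edgeR adjusted p = 0.167) and 0.46 for Utp6 (adjusted p = 0.207). Without BXD replicate 1, 3 members were called higher in BXD than model: Nol9 (log2 fold change 0.93, adjusted p = 0.0365), Utp6 (0.66, adjusted p = 0.0423) and Nop56 (0.61, adjusted p = 0.044). In that fit 211 genes were called in all (1.26% of all genes higher and 0.178% lower), against 9 with all libraries.

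**Figure D5:**
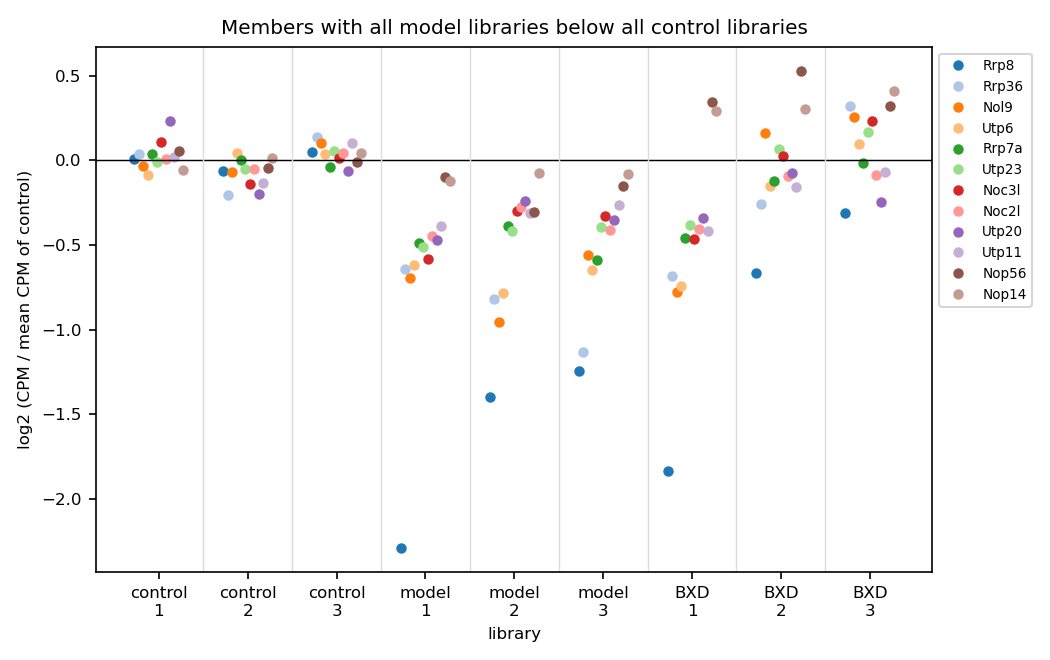
Log2 ratio of CPM to the control mean in each library, for the 12 members whose model libraries all lie below all control libraries. In BXD replicate 1 all but Nop56 and Nop14 lie near the levels of the model libraries, and in BXD replicates 2 and 3 most lie nearer the control line.

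The third comparison set treated stressed vessels beside unstressed ones, and it shares the control libraries with the first. In BXD against control 22 of 44 members (50%) were called higher, beside 16.1% of all genes, and 0 were called lower, beside 14.3% (30.3% of all genes in either direction). No member was lower at an unadjusted p under 0.05, beside 3054 of 14643 genes tested, or by DESeq2, beside 12% of all genes. With library size alone 3 were called lower, beside 24.6% of all genes. All BXD libraries lay above all control libraries in 28 members and below in 2, where 23.8% and 24.8% of all genes did so (48.6% together). The median log2 fold change was 0.39, beside -0.022 over all genes.

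By role, 13 of 22 processome members, 2 of 3 box C/D, 1 of 4 box H/ACA, 3 of 12 large subunit members and both chaperones were called higher in BXD than control. Over all genes this share was 16.1%. Rrp12 had the largest change, 2.59-fold (log2 fold change 1.37, adjusted p = 0.000875), followed by Utp18 with 1.10 and Utp15 with 0.98. Nop58 was at 0.66 (adjusted p = 0.00303), Nop56 at 0.40 (adjusted p = 0.0155) and Nop14 at 0.34 (adjusted p = 0.0238). Gar1, at 9.09, 11.9 and 12.1 CPM in control and 16.2, 18.1 and 16.2 in BXD, was at 0.61 (adjusted p = 0.0212), and Nol4l at 0.63 (adjusted p = 0.0442). The calls of Nop56, Nop14, Gar1, Utp4 and Nol4l were each lost when certain single libraries were left out, among them BXD replicate 2 for all 5. The call of Npm1 was lost without control replicate 1 and that of Rrp1 without control replicate 3. With library size alone 15 of the 22 calls were kept, and those of Gar1, Nol4l, Nop14, Nop56, Npm1, Rrp1 and Utp4 were lost. Rrp8 had the lowest log2 fold change at -0.80 and did not pass the test (adjusted p = 0.138).

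Other genes of the same pathway were taken from 6 lists of known factors that hold 148 genes in the table. In model against control 50 of them were called higher and 16 lower, where 21.6% and 20.6% of all genes were, and these shares apply to each list below. In BXD against control 59 were called higher and 9 lower, beside 16.1% and 14.3% of all genes. In BXD against model 0 were called in either direction by edgeR, beside 0.0615% of all genes. At an unadjusted p under 0.05, 22 were higher and 7 lower. Of the 14643 genes tested, 20.9% passed in either direction, 1613 higher and 1442 lower. DESeq2 called 4 higher and 1 lower, beside 3.38% and 2.46% of all genes. With library size alone the counts for model against control became 26 higher and 24 lower, beside 11.1% and 33.5% of all genes. Among 35 other processome factors 14 rose and 4 fell in model. Wdr43, a UTP-A subunit, went from 41.6 ± 2.72 CPM (SD, n = 3) in control to 102 ± 3.28 in model, a log2 fold change of 1.29 (2.45-fold, adjusted p = 0.000177). Mphosph10, the third protein of the Imp3 and Imp4 complex, rose by 0.96 and Tsr1 by 0.75 on the log2 scale. The 4 that fell were Pdcd11, Dhx37, Ddx10 and Dimt1.

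Among 48 other large subunit factors 23 rose and 1 fell. The increase was 1.16 on the log2 scale for Gnl3 (nucleostemin, adjusted p = 0.000276), 1.13 for the helicase Ddx24 and 0.99 for Nifk, a partner of the proliferation antigen Ki-67. The 1 that fell was the helicase Ddx31, with a log2 fold change of -1.11 (adjusted p = 0.0015).

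Of 16 genes for RNA polymerase I and its factors 5 rose and 3 fell in model, beside 21.6% and 20.6% of all genes, with a median log2 fold change of 0.054. In BXD against control 6 were called higher and 2 lower, beside 16.1% and 14.3% of all genes, with a median of 0.40. Twistnb, a subunit of the polymerase stalk, went from 13.5 CPM in control to 44.7 in model, a 3.31-fold increase (log2 fold change 1.73, SE 0.13, adjusted p = 0.000179). Polr1a, the largest catalytic subunit, went from 35.5 to 19.5 CPM (log2 fold change -0.87, adjusted p = 0.00201). The other genes that fell were the termination factor Ttf1 and Ptrf (-0.71, adjusted p = 0.00172), which is better known as the caveola protein cavin-1. The rDNA activator Ubtf was at 0.010 (adjusted p = 0.946).

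In the nuclear exosome, which trims and degrades RNA, 4 of 15 rose and 1 fell. They included the catalytic subunit Dis3 with a log2 fold change of 0.78, Mphosph6 with 0.61 and C1d with 0.40 (the last 2 lost with library size alone), and the gene that fell was the helicase Skiv2l2. Of 21 factors of snoRNP assembly and the nucleolar scaffold 4 rose and 5 fell, close to the shares of all genes (21.6% and 20.6%). Znhit3 rose by 0.82, Pop4 by 0.73 and Nolc1 by 0.54 on the log2 scale, and Ruvbl1, Ruvbl2, Rpap3, Pop1 and Tcof1 fell.

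Of 13 genes of the MYC network, whose products bind the E-box, 0 were called higher and 2 lower in model against control by edgeR. At an unadjusted p under 0.05, 0 were higher, beside 3772 of 14643 genes tested. DESeq2 called 0 higher, beside 18.8% of all genes. The 2 called lower by edgeR were Mxd3 (log2 fold change -1.92, SE 0.50, adjusted p = 0.0142) and Mga (-0.39, adjusted p = 0.0483). The call of Mga was lost with limma-voom and with size factors. Myc itself was at 43.4 ± 9.39 CPM in control, 66.1 ± 15.7 in model (SD, n = 3 each) and 88.2 in BXD, with a log2 fold change in model of 0.61 (SE 0.36, adjusted p = 0.201). In BXD against control 1 gene of this list was called higher and 2 lower, beside 16.1% and 14.3% of all genes.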

How the data were processed

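Poly(A) RNA from 9 rat gastric lymphatic vessel samples was sequenced, as the labels' protocols say. Tools listed without roles in the submitters' processing notes are HISAT2 2.2.4, Bowtie2 2.2.5 and Bowtie, with Rnor_6.0 as the build. For the counting tool, the sources used here give no name. No stranded kit is named, so a gene and an overlapping partner cannot be told apart. The authors deposited estimated counts per gene, of which 88.8% were whole (tolerance 1e-09), and FPKM values beside them, per the file headers. A second deposited table holds the authors' mean normalized signal per group, log2 fold changes, q-values and p-values, made with DESeq2 per the file headers. A further 54 columns of per-sample values were not used.

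Estimated counts were rounded, filtered with filterByExpr (14643 genes left) and scaled by trimmed means, with factors from 0.873 to 1.15. A robust quasi-likelihood model with group alone was fitted to all 9 libraries (edgeR 4.0.16 in R 4.3.3, 6 residual degrees of freedom, biological coefficient of variation 23.3%). The standard error is the log2 fold change divided by the root of the F statistic. On simulated data for model against control over 14643 genes, the fit recovered 0% of 200 genes changed 1.5-fold, 53% of those changed 2-fold and 95.5% of those changed 4-fold. All other genes were unchanged there, unlike the real comparison with its 6177 calls, so these shares do not give the sensitivity of the real fit. Counts of same-group libraries differed beyond sampling noise (chi-square over its degrees of freedom 13.9 to 51.3), and each library counts once. Alternatives, 19 in all, covered scaling, filter, tool (DESeq2 1.42.0, limma 3.58.1), FPKM with a pseudocount of 0.1 or 1 (genes at 0.5 FPKM or more in 3 libraries), a replicate block, 2 groups alone and each library left out.

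The members and all gene lists were chosen with earlier results of these data known, so no list was tested. Named genes are up to 4 called members per role with the smallest p, members called lower, the 3 smallest p in BXD against model, the 3 highest and 3 lowest FPKM and up to 3 called genes per pathway list. Other genes were named after their values were seen. Of the members, 8 had a count that was not whole in some library and 11 overlap another gene. Promoter sequences are from RefSeq, with 1 entry per gene, and 3 members had no entry. A group treated with omeprazole was not analysed here.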

Additional observations from a re-analysis of the deposited data

How the results depend on the processing

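With libraries scaled by size factors, and with DESeq2, limma-voom, 2 groups alone or no filter on low counts, all 20 members called higher and all 6 called lower in model against control were still called. The 6 lower members were also called under every other scaling. Scaling changed the balance: library size alone gave 12 higher and 12 lower, FPKM 13 and 12 (pseudocount 0.1) or 12 and 12 (pseudocount 1), and upper quartile scaling gave 11 lower. Of all genes called, 51.2% were higher with trimmed means, 37.7% with upper quartiles, 25.8% or 25.5% with FPKM and 24.8% with totals alone. The members' median log2 fold change in model against control was 0.12 and 0.11 with FPKM (pseudocount 0.1 and 1), 0.11 with library size alone and 0.24 with upper quartile scaling. In BXD against control it was 0.17, 0.17, 0.18 and 0.26. Minus the median of all genes, the former was 0.38 with trimmed means and between 0.33 (FPKM, pseudocount 1) and 0.40 (limma-voom) with another scaling or tool.

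In BXD against control, members called lower numbered 1 and 2 with FPKM and 3 with library size alone. The pathway lists had 26 higher in model against control with either FPKM fit and with library size alone, and 25 and 26 lower with FPKM. Against control, BXD had 33, 33 and 34 pathway genes higher and 15, 17 and 16 lower under the same 3 settings. Of all genes, these settings called 11.4%, 11.4% and 11.1% higher and 32.7%, 33.3% and 33.5% lower in model against control. In BXD against control they called 8.9%, 8.83% and 9.36% of all genes higher and 24.3%, 25.5% and 24.6% lower. In BXD against model DESeq2 called 2 members, and 4 pathway genes higher and 1 lower, beside 3.38% of all genes higher and 2.46% lower. The cause of these shifts was not tested, apart from the scaling itself.

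Leaving out each library in turn gave 16 to 21 members higher and 3 to 9 lower in model against control, 0 to 3 higher in BXD against model (3 without BXD replicate 1) and 17 to 23 higher in BXD against control. Of all genes, these fits called 14.7% to 23.6% higher and 14.7% to 23.4% lower in model against control. They called up to 1.26% higher in BXD against model, and 10% to 17.6% higher and 8.95% to 15.5% lower in BXD against control. The pathway lists ranged from 10 to 21 lower in model against control (10 without control replicate 3), 0 to 7 higher in BXD against model (7 without BXD replicate 1) and 2 to 11 lower in BXD against control (2 without control replicate 1, 3 without control replicate 3 or BXD replicate 2, 4 without control replicate 2 or BXD replicate 3). Where 2 libraries of a group were left, the shared model estimated the spread. The log2 fold change of Nol9 in BXD against control ranged from -0.23 to 0.21 (the latter without BXD replicate 1, adjusted p = 0.249), and that of Nol8 in model against control from -0.082 (without control replicate 2, adjusted p = 0.913) to 0.68.

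Replicate numbers are shared between groups. Deviations of libraries with the same number correlated at -0.431 to 0.0859, and those with different numbers at -0.184 to 0.277. No shared deviation by number was thus seen, and the main fit does not pair libraries. This cannot show whether libraries of the same number were handled together. With a replicate block, 4 pathway genes rather than 9 were lower in BXD against control, the call of Imp4 in model against control was lost, and all genes called in model against control numbered 5365 rather than 6177. Members not called are not shown to be equal.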

Other observations

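Nol8, a nucleolar factor of large subunit assembly, had the widest spread between replicates in the plot of fold changes. It was at 13.8, 3.38 and 13.9 CPM in control, 16.4, 6.36 and 16.8 in model and 13.2, 24.1 and 7.78 in BXD. Its counts were not whole in any library, and its log2 fold change of 0.35 in model against control carried a standard error of 0.59. In control and in model, replicate 2 was far below the other two libraries.

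In the same 250-base windows, on both strands, the CCAAT box (letters CCAAT) was present in 29.3% of members and 35.2% of tested genes, and the TATA box (TATAAA) in 7.32% and 6.89%. The NRF1 motif was present in 2.44% of members and 1.59% of tested genes, and the palindromic CGCG element known to be bound by BANP in 3 of 41 members (7.32%) and 0.821% of tested genes. These shares are descriptions with no test.

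In the authors' deposited table, 21 members had a q under 0.05 and a higher level in model than control and 6 a lower one, and 26 of them were also called in the edgeR fit. Nol4l was the exception. Of all genes with a q in that table, 36.2% passed in either direction. For BXD against control that table had 22 higher and 0 lower, beside 26.4% of all genes in either direction.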
